A study of Homo sapiens with 6 samples.

Results

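MHC class I antigen presentation was followed through 9 genes in RNA-seq of U2OS, a long-established line of human osteosarcoma cells. The genes were taken by name from the count and FPKM tables. They encode the classical heavy chains HLA-B and HLA-C, the non-classical heavy chains HLA-E and HLA-F, the light chain B2M, the peptide transporter subunits TAP1 and TAP2, the loading factor TAPBP (tapasin) and the transcriptional activator NLRC5. These are 9 of 39433 gene symbols in the tables once numbered copy rows, further rows with the same symbol and a number, are added to its main row. The tables do not say what the copies are. Libraries titled Lv_LINC00673, with the genotype label LINC00673 (3 libraries), were set against libraries titled Lv_NC, with the genotype label NC (3 libraries). The design text speaks of knockdown of the long noncoding RNA LINC00673 and of wild-type cells. The labels do not say what NC stands for, give no time after treatment, and do not say whether the libraries came from separate cultures, so the spread behind each p-value may be only technical.

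A class I molecule is a heavy chain paired with beta-2 microglobulin that displays a short peptide at the cell surface. Proteasomes cut cytosolic proteins into peptides, the TAP1-TAP2 transporter carries them into the endoplasmic reticulum, and tapasin holds empty class I molecules at the transporter until a peptide is bound. NLRC5 switches on the heavy chain, B2M and TAP1 genes through an enhanceosome of RFX, CREB/ATF and NF-Y factors, and interferons and NF-kappaB raise the same genes. Nearly all nucleated cells express class I, and tumour cells often lower it.

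Total counts were 61815841 to 71237493 in Lv_LINC00673 and 76814723 to 87227980 in Lv_NC. LINC00673 itself had 479, 417 and 435 counts in Lv_LINC00673 and 709, 751 and 516 counts in Lv_NC, and this difference did not pass the test (log2 fold change -0.42, SE 0.17, edgeR adjusted p = 0.0886). Of the marker genes of bone and mesenchyme, VIM averaged 2601 ± 149 and 2057 ± 99.8 CPM in Lv_LINC00673 and Lv_NC (SD, n = 3 each), while TWIST1 was at 0 counts in each library and COL1A2 at 0 in all but 1. The 10 mesenchymal and bone markers summed to 3629 to 4048 CPM in Lv_LINC00673 and 3179 to 3476 CPM in Lv_NC, mostly VIM. Of the 7 tested, VIM and RUNX2 rose (0.34 and 1.24 on the log2 scale, adjusted p = 0.014 and 0.00612) and SPARC and THY1 fell (-0.37 and -0.33, adjusted p = 0.0111 and 0.0455). Blood and immune markers summed to 60.7 to 73 CPM in Lv_LINC00673 and 59.3 to 79.9 CPM in Lv_NC. CD68 made up most of that sum, 8 of the 10 genes were below 1 CPM, PTPRC had at most 16 counts in a library, and HBB and LYZ were at 0 counts in all libraries.

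Of the 9 genes, 7 lie in the MHC on the short arm of chromosome 6 (GRCh38.p14, RefSeq). HLA-F is at 29723434 to 29738532, HLA-E at 30489509 to 30494194, HLA-C at 31268749 to 31272092 and HLA-B at 31353875 to 31357179. TAP2 follows at 32821831 to 32838739, TAP1 at 32845209 to 32853704 and TAPBP at 33299694 to 33314078. B2M is on chromosome 15 (44711517 to 44718145) and NLRC5 on chromosome 16 (56989557 to 57083520), and all 9 are protein-coding. HLA-F overlaps the antisense RNA gene HLA-F-AS1, TAP1 overlaps PSMB8-AS1, and TAPBP overlaps RGL2. Without the strand setting, reads of such pairs may not be told apart. HLA-F-AS1 averaged 123 counts in Lv_LINC00673 and 134 in Lv_NC, and PSMB8-AS1 averaged 92 in Lv_LINC00673 and 109 in Lv_NC. They had log2 fold changes of 0.02 and -0.11 (adjusted p = 0.96 and 0.832). RGL2, with 6244 and 8655 counts on average in Lv_LINC00673 and Lv_NC, had a log2 fold change of -0.32 (adjusted p = 0.0469; the call was lost in 5 of the 6 fits that leave out 1 library, at up to 0.142), so the reads counted for TAPBP are uncertain to that extent.

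The start regions of 6 of the genes are shown. B2M, TAP1, TAP2 and TAPBP were called lower in at least 18 of 19 alternative fits, and the calls of HLA-B and HLA-C depended on the scaling. HLA-E was called lower in all 19 but no start region was found for it. HLA-F, called lower in 14, is described without its sequence. A link between motifs and calls was not tested. Each sequence runs 5′ to 3′ in gene direction from 250 bases before the annotated start to 50 bases after it (RefSeq, GRCh38.p14), and capitals mark matches to 4 motifs on either strand.
HLA-B, chr6:31357130-31357429, minus strand: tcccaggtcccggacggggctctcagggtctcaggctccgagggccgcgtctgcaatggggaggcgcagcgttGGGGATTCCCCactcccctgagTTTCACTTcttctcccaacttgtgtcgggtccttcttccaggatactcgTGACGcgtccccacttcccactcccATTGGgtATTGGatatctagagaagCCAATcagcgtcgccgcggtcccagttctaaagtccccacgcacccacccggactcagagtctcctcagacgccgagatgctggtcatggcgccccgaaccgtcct
HLA-C, chr6:31272043-31272342, minus strand: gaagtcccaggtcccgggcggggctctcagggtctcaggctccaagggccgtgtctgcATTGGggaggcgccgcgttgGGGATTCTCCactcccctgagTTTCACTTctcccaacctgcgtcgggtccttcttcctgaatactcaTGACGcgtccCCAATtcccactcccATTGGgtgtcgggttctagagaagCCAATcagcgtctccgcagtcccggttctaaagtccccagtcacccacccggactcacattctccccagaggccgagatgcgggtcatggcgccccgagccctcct
B2M, chr15:44711267-44711566, plus strand: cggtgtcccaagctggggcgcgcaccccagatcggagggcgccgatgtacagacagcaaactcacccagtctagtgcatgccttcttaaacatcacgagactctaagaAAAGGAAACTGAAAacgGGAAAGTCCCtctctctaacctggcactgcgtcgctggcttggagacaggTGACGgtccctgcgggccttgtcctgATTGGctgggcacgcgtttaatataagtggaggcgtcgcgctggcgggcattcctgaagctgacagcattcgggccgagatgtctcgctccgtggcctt
TAP1, chr6:32853655-32853954, minus strand: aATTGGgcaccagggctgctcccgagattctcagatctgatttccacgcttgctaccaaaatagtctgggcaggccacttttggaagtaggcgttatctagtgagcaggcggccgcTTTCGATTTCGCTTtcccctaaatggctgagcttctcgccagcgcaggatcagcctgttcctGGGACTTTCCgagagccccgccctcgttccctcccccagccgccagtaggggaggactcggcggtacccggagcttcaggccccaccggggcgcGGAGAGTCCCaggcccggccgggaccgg
TAP2, chr6:32838690-32838989, minus strand: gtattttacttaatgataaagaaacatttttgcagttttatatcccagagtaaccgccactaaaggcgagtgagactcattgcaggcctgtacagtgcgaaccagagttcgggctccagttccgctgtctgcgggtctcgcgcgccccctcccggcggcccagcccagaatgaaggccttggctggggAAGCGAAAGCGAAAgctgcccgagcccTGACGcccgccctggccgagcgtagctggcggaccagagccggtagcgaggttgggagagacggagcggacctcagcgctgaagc
TAPBP, chr6:33314029-33314328, minus strand: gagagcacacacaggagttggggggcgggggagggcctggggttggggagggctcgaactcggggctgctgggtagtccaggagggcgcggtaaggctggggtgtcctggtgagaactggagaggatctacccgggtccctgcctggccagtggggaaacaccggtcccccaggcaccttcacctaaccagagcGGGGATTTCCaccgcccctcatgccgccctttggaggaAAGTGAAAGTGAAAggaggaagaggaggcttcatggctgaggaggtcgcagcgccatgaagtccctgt
The motifs were CCAAT, the NF-Y box; TGACG, the core of CREB/ATF sites; AANNGAAA, the half-repeat bound by interferon regulatory factors; and an NF-kappaB type site, spelled GGG, any 2 bases, T, any 2 bases, CC. Matches of 1 motif can overlap, as do the 3 kappaB-type matches of HLA-B, and a match of 1 motif may overlap that of another. Among 35116 RefSeq start regions of the same length, 34.6% held CCAAT, 24.6% TGACG, 22.8% AANNGAAA and 22% the kappaB-type motif. HLA-B, HLA-C and B2M held all 4 motifs. In HLA-B the order was the kappaB-type motif at 177 bases before the start, AANNGAAA at 155, TGACG at 106 and CCAAT at 81, 74 and 56. HLA-C kept that order, with the kappaB-type motif at 172 bases before the start, AANNGAAA at 151, TGACG at 105 and CCAAT boxes at 95, 80 and 56 and a further one at 192, and its region was 88.5% identical to that of HLA-B. In B2M a CCAAT box lay 49 bases before the start, TGACG 75 and AANNGAAA matches 142 and 136. HLA-F, not printed, held AANNGAAA and CCAAT, and its region was 79.2% identical to HLA-B. TAP1 held 2 AANNGAAA matches, 134 and 128 bases before the start, kappaB-type matches 72 bases before and 22 after it, and a CCAAT box at 249 before. TAP2 held 2 AANNGAAA matches, 62 and 56 bases before the start, and TGACG at 35. TAPBP held 2 AANNGAAA matches, 18 and 12 bases before the start, and a kappaB-type match at 56. The matches describe letters in these windows, not sites in use.

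The comparison asked how these genes differed between Lv_LINC00673 and Lv_NC cells. All 9 had a lower mean in Lv_LINC00673, and 8 fell with an adjusted p under 0.05 (quasi-likelihood test of edgeR, 20364 genes); NLRC5 did not pass. The fitted levels of the 9 in Lv_LINC00673 were 58.0 to 79.2% of those in Lv_NC, and their median log2 fold change was -0.61, against a median of 0.06 over all tested genes. For background, 13.8% of all tested genes were called lower and 16% higher, and among the 11283 genes with a mean of at least 5 CPM, a range that holds all 9, 23.4% were called lower. At each of the 9 genes every Lv_LINC00673 library was lower than every Lv_NC library in CPM (counts scaled to library size with TMM factors), a pattern that 21.6% of all tested genes shared. Together the 9 genes took 0.2, 0.176 and 0.181% of all counts in Lv_LINC00673, against 0.22, 0.234 and 0.235% in Lv_NC. In bulk RNA, fewer cells with a transcript and less transcript per cell cannot be told apart.

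**Figure D1:**
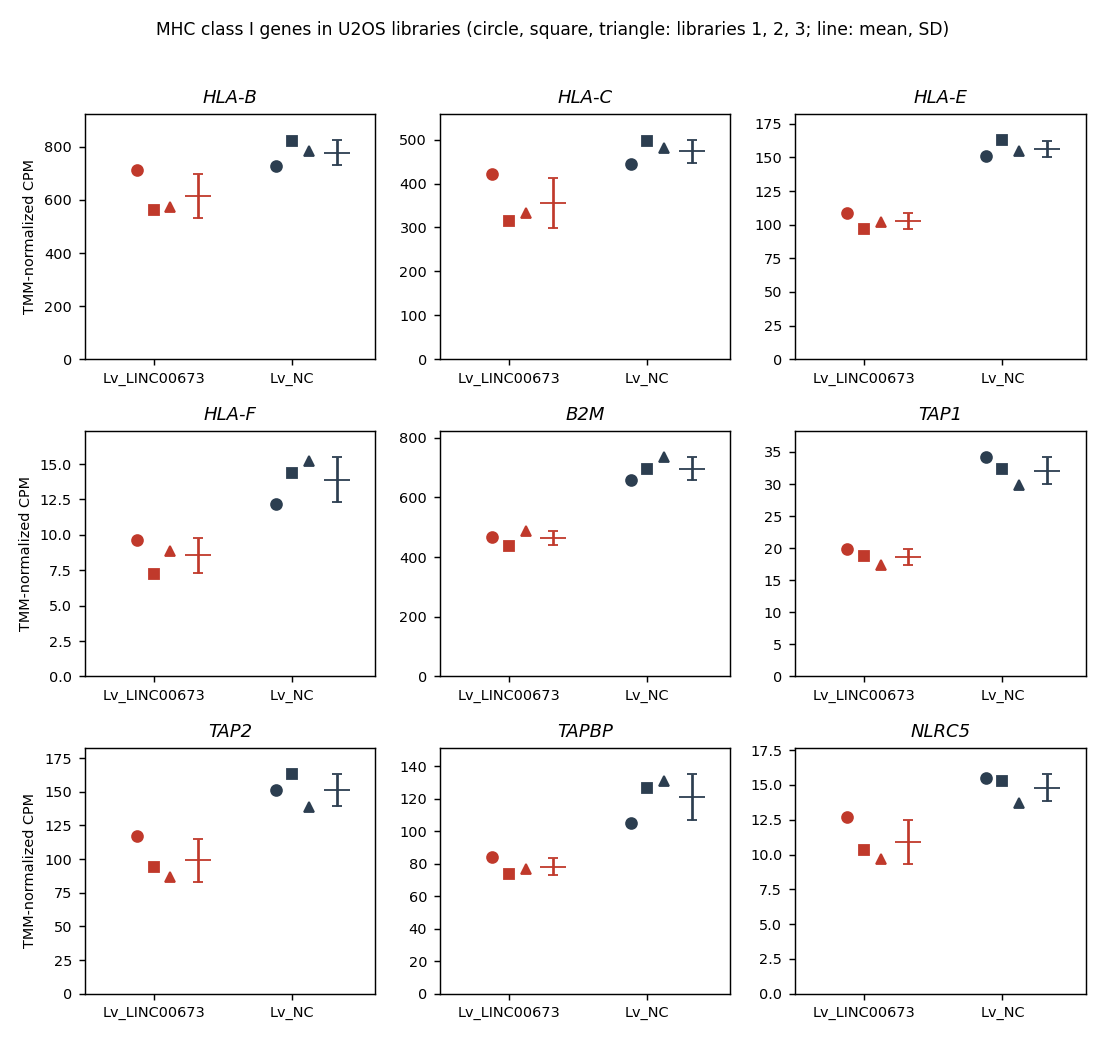
TMM-normalized CPM (y axis, from 0) of the 9 genes in each library, with Lv_LINC00673 left and Lv_NC right; symbols are single libraries and the bar gives mean and SD (n = 3). The groups do not overlap at any of the 9 genes, and library 1 of Lv_LINC00673 comes closest to Lv_NC at HLA-B (711 against 726 CPM).

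Fold changes in these libraries followed the GC content and length of genes. Over 11204 genes with a mean log2 CPM above 2, fold change had a Spearman correlation of -0.51 with GC content and of 0.44 with transcript length; genes are not independent replicates. The 9 genes differ in both: their longest transcripts run from 1547 bases for HLA-B to 6822 for NLRC5, and GC content is 40.6% in B2M, 49.1% in TAP2 and 54.8 to 62.7% in the other 7. A fit with an offset for GC content and length in each library, in which these 2 correlations were 0.01 and -0.01, is therefore given beside each gene as its offset value. It called 6 of the 9 genes lower and 0 higher, where 16.7% of its 16710 genes were called lower and 17.3% higher. Scaling by library totals alone, which moved the median of all tested genes by 0.17, also called 6 lower (background 6.31%).

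HLA-B and HLA-C, the polymorphic heavy chains that present peptides to CD8 T cells, were the most abundant of the heavy chains and had the smallest fold changes of the 9. HLA-B had 711, 562 and 575 CPM in Lv_LINC00673 and 726, 821 and 786 CPM in Lv_NC. Library 1 of Lv_LINC00673 stood only just below the lowest Lv_NC library, and the other 2 were well below. The fitted level fell to 79.2% of the Lv_NC level (interval at 95% of 67.2 to 93.4%; log2 fold change -0.34, SE 0.11, adjusted p = 0.0392). HLA-C had 422, 314 and 333 CPM in Lv_LINC00673 and 444, 496 and 480 CPM in Lv_NC, the same arrangement of libraries. Its fitted level fell to 75.3% (62.9 to 90.1%; log2 fold change -0.41, SE 0.12, adjusted p = 0.0255). These 2 calls depended on the scaling. With the offset the log2 fold change was 0.09 for HLA-B (adjusted p = 0.189) and -0.04 for HLA-C (adjusted p = 0.608), and with library totals -0.17 and -0.24 (adjusted p = 0.172 and 0.0916). Both calls were also lost without Lv_LINC00673 library 2 or 3 or Lv_NC library 2 or 3 (adjusted p = 0.13, 0.149, 0.11 and 0.109 for HLA-B and 0.0896, 0.104, 0.0664 and 0.0819 for HLA-C). In the deposited FPKM, used without TMM factors, the groups overlapped. HLA-B had 457, 383 and 384 FPKM in Lv_LINC00673 and 436, 477 and 467 FPKM in Lv_NC. HLA-C had 269, 213 and 221 FPKM in Lv_LINC00673 and 265, 286 and 283 FPKM in Lv_NC. On the log2(FPKM + 1) scale the differences were -0.18 for HLA-B and -0.26 for HLA-C, near those with library totals.

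HLA-E presents peptides from the leader sequences of other class I chains and is read by the NKG2A receptor of natural killer cells, and HLA-F is a non-classical chain that can reach the surface without peptide. HLA-E had 109, 96.8 and 102 CPM in Lv_LINC00673 and 151, 163 and 155 CPM in Lv_NC, a gap wider than the range of either group. It fell to 65.7% of the Lv_NC level (57.4 to 75.2%; log2 fold change -0.61, SE 0.09, adjusted p = 0.00238) and stayed lower in the offset value (-0.31, adjusted p = 0.00211). HLA-F, at a far lower level, had 9.65, 7.22 and 8.84 CPM in Lv_LINC00673 and 12.2, 14.4 and 15.2 CPM in Lv_NC. It fell to 61.5% (47.4 to 79.7%; log2 fold change -0.70, SE 0.17, adjusted p = 0.0129). The offset value was -0.28 (adjusted p = 0.0909), and the call was lost without Lv_NC library 3 (adjusted p = 0.0588).

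B2M encodes the light chain that every class I molecule needs for folding and export. It had 467, 438 and 487 CPM in Lv_LINC00673 and 659, 694 and 735 CPM in Lv_NC, with no overlap and little spread within each group. The level fell to 66.7% of the Lv_NC one (58.6 to 75.9%; log2 fold change -0.58, SE 0.08, adjusted p = 0.00238). B2M has the lowest GC content of the 9, and with the offset its fold change was larger (-0.85, adjusted p = 0.00582). The offset also used the length of its longest transcript, 2403 bases, and other lengths were not tried.

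The transporter genes fell with it. TAP1 had 19.8, 18.8 and 17.4 CPM in Lv_LINC00673 and 34.2, 32.3 and 29.9 CPM in Lv_NC, the largest fold change of the 9 with all libraries and TMM factors. It fell to 58.0% of the Lv_NC level (48.4 to 69.5%; log2 fold change -0.79, SE 0.12, adjusted p = 0.00259; offset value -0.50, adjusted p = 0.00459). The 8 rows of TAP1, tested as deposited, ran from -1.90 to 0.47 on the log2 scale, with 6 of them below 0. TAP2, its partner in the transporter, had 117, 93.8 and 86.4 CPM in Lv_LINC00673 and 151, 163 and 139 CPM in Lv_NC. Its level fell to 65.6% (54.3 to 79.4%; log2 fold change -0.61, SE 0.12, adjusted p = 0.00665; offset value -0.70, adjusted p = 0.00386). TAPBP had 84, 73.5 and 77.1 CPM in Lv_LINC00673 and 105, 127 and 131 CPM in Lv_NC. Library 1 of Lv_NC was the lowest of its group and still above every Lv_LINC00673 library, and the fitted level fell to 64.6% (54.5 to 76.5%; log2 fold change -0.63, SE 0.11, adjusted p = 0.00399; offset value -0.41, adjusted p = 0.00254).

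NLRC5, the activator of class I promoters, had 12.7, 10.3 and 9.69 CPM in Lv_LINC00673 and 15.5, 15.3 and 13.7 CPM in Lv_NC. The groups did not overlap, and the fitted level was 73.6% of that in Lv_NC, but the difference did not pass (57.9 to 93.5%; log2 fold change -0.44, SE 0.15, edgeR adjusted p = 0.0557). NLRC5 passed in the offset fit (-0.46, adjusted p = 0.0103), and also once Lv_LINC00673 library 1 was left out (-0.58, adjusted p = 0.0203).

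**Figure D2:**
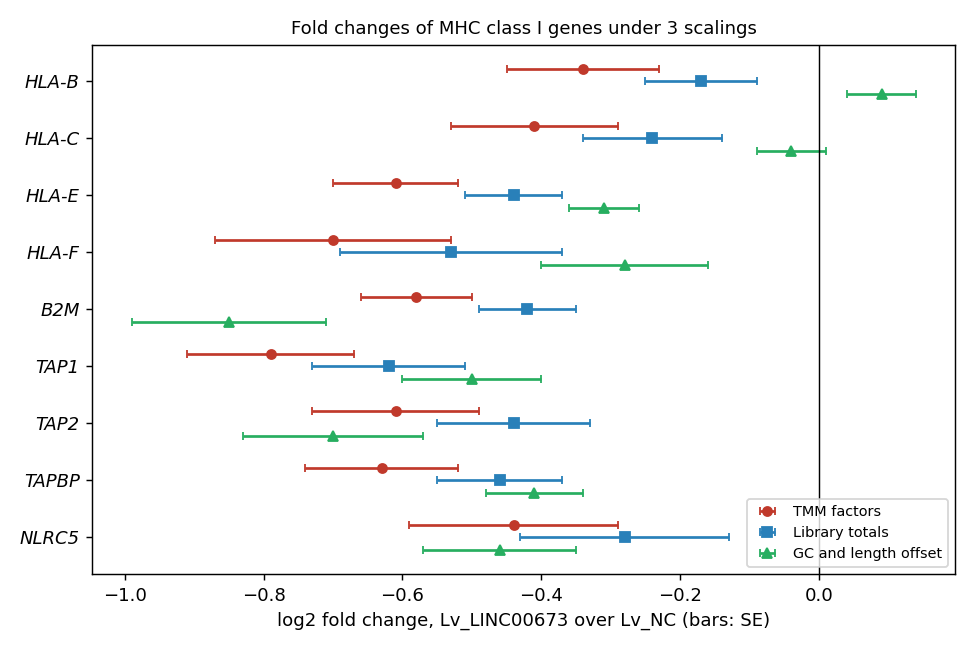
Log2 fold change of Lv_LINC00673 over Lv_NC (x axis; bars are SE) for the 9 genes with TMM factors, with library totals and with the GC and length offset. With the offset HLA-B stands at 0.09 and HLA-C at -0.04. HLA-E, HLA-F, B2M, TAP1, TAP2, TAPBP and NLRC5 stay below 0 by more than their SE under each of the 3 scalings. HLA-F did not pass the test with the offset, nor NLRC5 with TMM factors or library totals.

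Each gene other than NLRC5 is spread over 2 to 8 rows of the tables, and the split of counts over those rows differed between libraries. The HLA-B row without a number held 352, 34 and 138 counts in Lv_LINC00673, against 953, 33 and 0 in Lv_NC, at most 1.69% of the gene's counts. Copy row 6 of HLA-B held 29564, 21500 and 21547 counts in Lv_LINC00673 and 29462, 34578 and 30319 counts in Lv_NC. Copy row 5 of TAP1 had 160, 135 and 145 counts in Lv_LINC00673 and 689, 240 and 854 counts in Lv_NC, so single rows carry jumps that their neighbours do not. TAPBP and B2M were split evenly by comparison: the rows without a number held 22.1 to 24.1% of TAPBP counts and 55.6 to 57.4% of B2M counts in each library. Of the 51 rows, tested as deposited, 47 had a fold change below 0 and 23 were called lower and 0 higher, where 12.5% of all deposited rows were called lower; rows of 1 gene may share reads and are not independent. The row without a number alone did not pass for HLA-B (log2 fold change -0.79, adjusted p = 0.804), TAP2 (-0.18, adjusted p = 0.643) or HLA-F (-0.72, adjusted p = 0.0825). The sources used here do not say how reads that match several copies were counted, so summed levels may count a read more than once, and heavy chain genes, which resemble each other, are uncertain one by one.

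**Figure D3:**
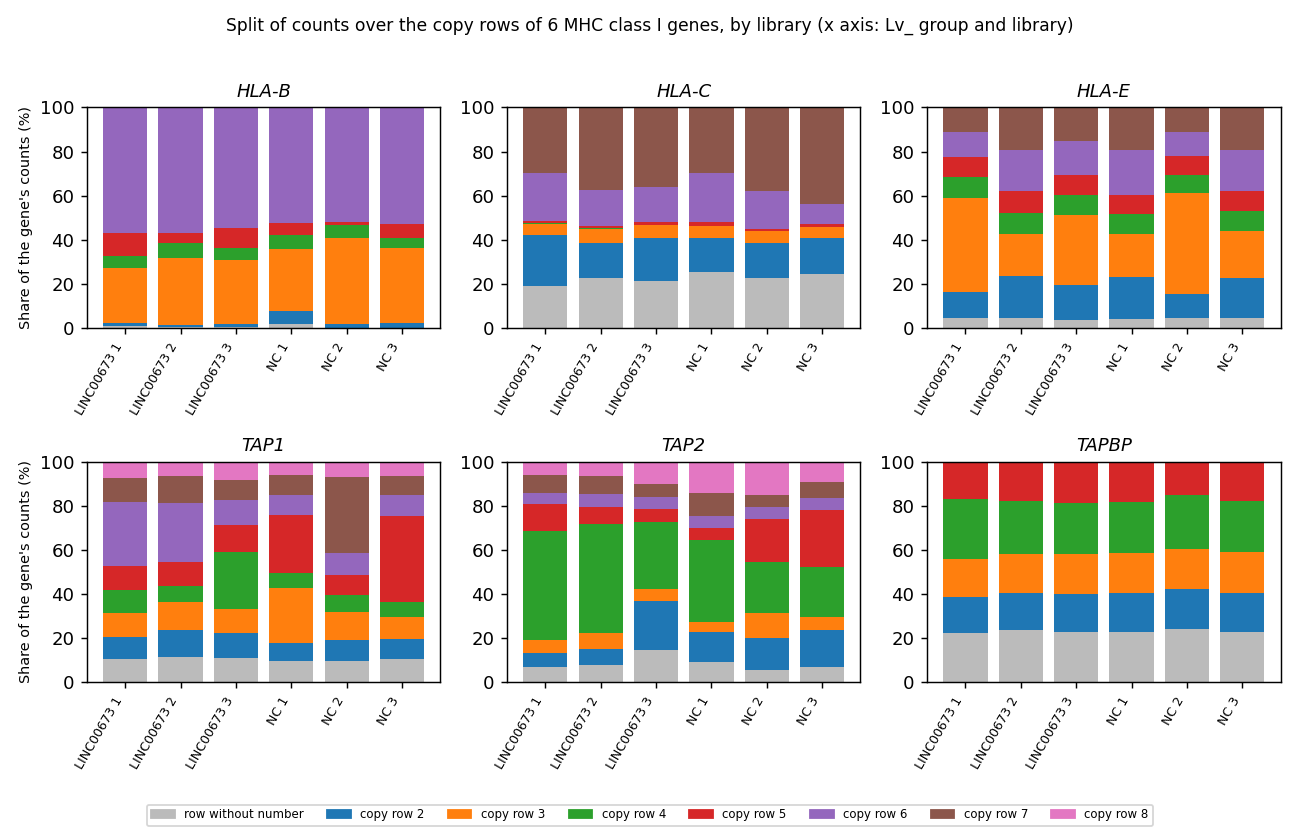
Share of each gene's counts (y axis, percent) held by the row without a number and by each copy row, for 6 genes and each library, with Lv_LINC00673 libraries left and Lv_NC right. TAPBP keeps nearly the same split in each library, while the split of TAP1 and TAP2 changes from library to library within a group.

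On the per-length FPKM scale the order of levels was the same in both groups: B2M, HLA-B, HLA-C, HLA-E, TAPBP, TAP2, TAP1, HLA-F and NLRC5. These are sums over unequal numbers of rows, 1 for NLRC5, 2 for B2M and 8 for TAP1 and TAP2. If reads were counted in several rows, levels and ranks cannot be compared between genes. B2M averaged 499 ± 24.6 FPKM in Lv_LINC00673 and 666 ± 34.9 FPKM in Lv_NC (SD, n = 3 each), above 99.5% of protein-coding genes by its mean over all libraries. HLA-E averaged 40.8 ± 1.14 and 55.4 ± 1.19 FPKM, TAPBP 24.6 ± 0.591 and 34.4 ± 3.76 FPKM, and TAP2 18.4 ± 2.55 and 24.6 ± 1.72 FPKM in Lv_LINC00673 and Lv_NC. TAP1, with 7.24, 7.33 and 6.61 FPKM in Lv_LINC00673 and 11.7, 10.7 and 10.2 FPKM in Lv_NC, lay well under its partner TAP2. HLA-F averaged 6.31 ± 0.744 and 9.25 ± 0.968 FPKM, and NLRC5, the least abundant, 2.1 ± 0.389 and 2.85 ± 0.213 FPKM in Lv_LINC00673 and Lv_NC. Neighbours in the order did not overlap within a group, apart from TAP1 and HLA-F in Lv_LINC00673. Between the groups, FPKM overlapped at HLA-B and HLA-C and at no other of the 9; 13.1% of all tested genes were lower without overlap on that scale.

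Ratios to B2M within a library are free of library scaling and were compared by an exact two-sided permutation test, which cannot go below 0.10 with 3 against 3. The log2 ratio of HLA-B to B2M counts was 0.61, 0.36 and 0.24 in Lv_LINC00673 and 0.14, 0.24 and 0.10 in Lv_NC, a difference of 0.24 (exact p = 0.20, adjusted p = 0.53 over 8 ratios), and the groups met at 0.24. That of HLA-C averaged -0.39 ± 0.22 in Lv_LINC00673 and -0.56 ± 0.06 in Lv_NC (exact p = 0.20). For HLA-E it averaged -2.18 ± 0.07 and -2.16 ± 0.08, and for TAP1 -4.64 ± 0.15 and -4.44 ± 0.17 in Lv_LINC00673 and Lv_NC (exact p = 0.70 and 0.30; SD, n = 3 each). None of the 8 ratios separated the groups. The ratios of counts carry no correction for GC content or length. In the offset values all 8 genes had log2 fold changes above that of B2M. The differences were 0.94 for HLA-B, 0.81 for HLA-C, 0.57 for HLA-F and 0.54 for HLA-E. They were 0.44 for TAPBP, 0.39 for NLRC5, 0.35 for TAP1 and 0.16 for TAP2. All 8 differences rest on the offset value of B2M (-0.85), fitted with the length of its longest transcript, 2403 bases. Other lengths were not tried, so these differences may depend on that choice.

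Other genes of the pathway did not all move with these 9 (lists chosen with earlier results of these data known). A list of 13 genes covered peptide loading and trimming together with general folding and protein entry in the endoplasmic reticulum. Of these 6 rose and 1 fell (median 0.46 on the log2 scale), beside 16% higher and 13.8% lower over all tested genes. HSPA5, GANAB and the SEC61 genes on it are not specific to class I. The lectin chaperone gene CANX averaged 364 ± 55.9 CPM in Lv_LINC00673 and 226 ± 33.4 CPM in Lv_NC (log2 difference 0.69 with an SE of 0.14, adjusted p = 0.00658). UGGT1, which encodes the glycoprotein folding sensor, averaged 85.4 ± 15.4 and 34.5 ± 8.31 CPM (1.31, SE 0.18, adjusted p = 0.00232), and HSPA5, the main HSP70 of the endoplasmic reticulum, 1231 ± 103 and 797 ± 52.1 CPM in Lv_LINC00673 and Lv_NC (0.63, SE 0.09, adjusted p = 0.00249). The peptide-trimming protease gene ERAP1 averaged 13.1 ± 1.6 CPM in Lv_LINC00673 and 7.5 ± 1.25 CPM in Lv_NC (0.81, SE 0.18, adjusted p = 0.00897), and its relative ERAP2 rose too, at 1.05 ± 0.341 and 0.357 ± 0.184 CPM (1.54, SE 0.47, adjusted p = 0.0334). PDIA3, a partner of tapasin in the loading complex, rose (0.46, adjusted p = 0.0136) and the calreticulin gene CALR did not pass (-0.19, adjusted p = 0.131; offset value 0.17, adjusted p = 0.0178). SEC61G, a subunit of the translocation channel, fell (-0.38, adjusted p = 0.0108; 0.0526 without Lv_LINC00673 library 3). Offset values also gave 6 higher and 1 lower, median 0.22, with CANX at 0.30, UGGT1 at 0.76 and HSPA5 at 0.54 past the test and ERAP1 at 0.24 and ERAP2 at 0.92 not (adjusted p = 0.208 and 0.182). The call of PDIA3 was lost without Lv_LINC00673 library 3 (adjusted p = 0.0707) and without library 2, and that of ERAP2 without Lv_LINC00673 library 2 (adjusted p = 0.139), among others; CANX, UGGT1, HSPA5 and ERAP1 kept theirs whichever library was left out.

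Of 10 genes of the proteasome's catalytic sites and activators, 8 fell and 0 rose (median -0.39 on the log2 scale). Over all tested genes 13.8% were called lower and 16% higher. PSMB8, an immunoproteasome subunit encoded beside TAP1, averaged 12.9 ± 2.24 CPM in Lv_LINC00673 and 21 ± 1.38 CPM in Lv_NC (log2 difference -0.70 with an SE of 0.15, adjusted p = 0.00958). PSME2, a subunit of the interferon-inducible activator, averaged 51.8 ± 4.81 and 74.7 ± 5.69 CPM (-0.53, SE 0.11, adjusted p = 0.00688). PSMB10 fell by 0.44 on the log2 scale (adjusted p = 0.0425). The constitutive subunit genes PSMB5, PSMB6 and PSMB7 fell as well, by 0.38, 0.39 and 0.43, and the activator genes PSME1 and PSME3 by 0.29 and 0.27. PSMB9, the immunoproteasome gene next to TAP1, had 43, 16 and 37 counts in Lv_LINC00673 and 59, 42 and 24 counts in Lv_NC, too few to tell the groups apart. In the offset values only PSMB8, PSME2 and PSME3 were lower (-0.39, -0.31 and -0.17), while PSMB6, PSMB10 and PSME1 stood above 0 (0.03, 0.01 and 0.12; adjusted p = 0.804, 0.969 and 0.212). The count of lower genes in this list was 3 to 8 when 1 library was left out. PSMB8, PSME2 and PSMB7 kept their calls in all 6 such fits, and the other 5 lost theirs in at least 3 of them, with adjusted p up to 0.146 for PSMB10.

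Of 16 genes of class I transcription, 3 fell and 3 rose, near the background of 13.8% lower and 16% higher over all tested genes. Offset values gave 5 higher and 2 lower, beside 17.3% and 16.7% over the genes of that fit. IRF9 and STAT2 were higher there (0.64 and 0.26, adjusted p = 0.00315 and 0.0171). Neither passed with TMM factors (0.25 and 0.12, adjusted p = 0.268 and 0.348). IRF1, an interferon-induced activator of class I promoters, averaged 13.5 ± 0.281 CPM in Lv_LINC00673 and 18.5 ± 0.777 CPM in Lv_NC (log2 difference -0.45 with an SE of 0.12, adjusted p = 0.0225; offset value -0.41, adjusted p = 0.00913). RELA, an NF-kappaB subunit, and RFX5, a DNA-binding RFX subunit of the enhanceosome, fell by 0.37 and 0.32 (adjusted p = 0.0255 and 0.025). Their offset values were -0.11 and -0.23 (adjusted p = 0.16 and 0.022). EZH2, a histone methyltransferase that can silence class I genes, rose by 0.65 (adjusted p = 0.0174; offset value 0.37, adjusted p = 0.0165). CREB1 rose by 0.51 (adjusted p = 0.0476) but stood at -0.23 in the offset value (adjusted p = 0.264). NFYA, NFYB and NFYC, the subunits of NF-Y, did not pass (0.17, 0.37 and -0.02), though NFYC was higher in the offset value (0.25, adjusted p = 0.0166). The calls of IRF1, RELA, RFX5, EZH2 and CREB1 were each lost in 4 to 5 of the 6 fits that leave out 1 library, with an adjusted p of up to 0.173 for CREB1 and 0.0708 for IRF1.

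Of 11 tested interferon signalling genes, 3 rose and 3 fell, beside 16% higher and 13.8% lower over all tested genes. In the offset values 2 were higher and 0 lower, beside 17.3% and 16.7% over the genes of that fit. With a replicate block 1 was higher and 0 lower. The receptor gene IFNAR1 averaged 13.5 ± 4.01 CPM in Lv_LINC00673 and 6.11 ± 1.38 CPM in Lv_NC (log2 difference 1.15 with an SE of 0.25, adjusted p = 0.00872; offset value 0.64, adjusted p = 0.0147). The kinase gene JAK1 averaged 62 ± 9.99 and 30.5 ± 7.29 CPM (1.02, SE 0.18, adjusted p = 0.00404; offset value 0.86, adjusted p = 0.00132). JAK2 rose by 0.92 (adjusted p = 0.0296; offset value 0.38, adjusted p = 0.2). The interferon-gamma receptor gene IFNGR2 fell by 0.46 (adjusted p = 0.00688), TYK2 by 0.33 (0.0497) and SOCS3 by 0.40 (0.0221), none of them past the test in the offset values. IFNB1, the interferon beta gene, was at 0 counts in all 6 libraries. JAK2, TYK2 and SOCS3 each lost their call in 4 of the 6 fits that leave out 1 library, JAK2 for example without Lv_LINC00673 library 2 (adjusted p = 0.122), while IFNAR1, JAK1 and IFNGR2 kept theirs in all 6 fits.

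**Figure D4:**
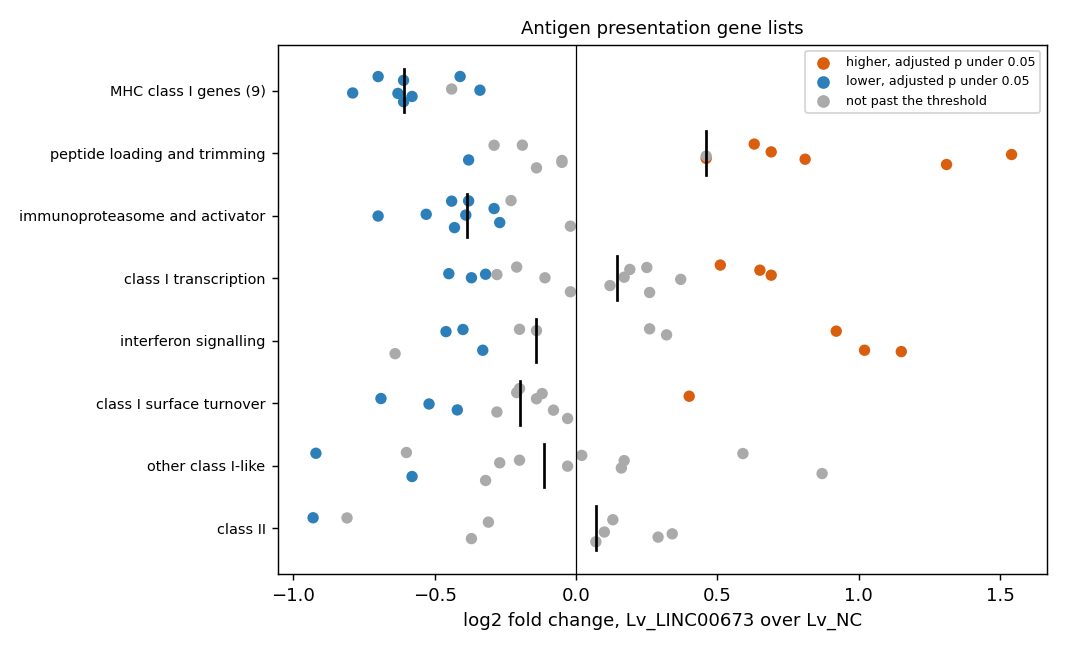
Log2 fold change (x axis, TMM factors) of each tested gene by list, with black ticks at list medians and colours for the call. The 9 class I genes and the 8 called proteasome genes lie left of 0 (list medians -0.61 and -0.39), and the loading and trimming list has most of its called genes to the right.

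Class I molecules are also removed from the cell surface and from the endoplasmic reticulum by ubiquitin ligases and their partners. Of 11 genes of this turnover 3 fell and 1 rose, where 13.8% of all tested genes were called lower and 16% higher. MARCHF4, a membrane ligase, averaged 171 ± 17.7 CPM in Lv_LINC00673 and 275 ± 16 CPM in Lv_NC (log2 difference -0.69 with an SE of 0.10, adjusted p = 0.0024; offset value -0.53). SUSD6, which with TMEM127 and WWP2 directs class I to lysosomes, fell by 0.52 (adjusted p = 0.00975), while TMEM127 and WWP2 had log2 fold changes of -0.08 and -0.03 (adjusted p = 0.55 and 0.833). STUB1 fell by 0.42 (adjusted p = 0.0195; offset value -0.07, adjusted p = 0.368) and MARCHF8, another membrane ligase, rose by 0.40 (adjusted p = 0.026). STUB1 lost its call in 4 and MARCHF8 in 5 of the 6 fits that leave out 1 library, with adjusted p up to 0.0703 and 0.0969.

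Among 14 other class I-like genes, 12 were tested, 2 fell and 0 rose. The lower share is near the background of 13.8%. Offset values gave 2 lower and 2 higher, beside 16.7% and 17.3% over the genes of that fit. The 2 higher were ULBP3 (0.59, adjusted p = 0.0206) and FCGRT (0.46, adjusted p = 0.0446), neither called with TMM factors. The stress ligand genes MICA and ULBP2, read by the NKG2D receptor, averaged 78.1 ± 9.61 and 10.1 ± 1.10 CPM in Lv_LINC00673 and 117 ± 5.77 and 19.2 ± 1.45 CPM in Lv_NC (log2 fold changes -0.58 and -0.92, adjusted p = 0.00479 and 0.00291; offset values -0.25 and -0.73). HLA-G had 0 counts in each library but Lv_NC library 2, which had 6. Class II genes, which load peptides in specialised immune cells, were near absent: 12 of 14 averaged below 1 CPM, and of the 9 tested only HLA-DQB1 passed, with 82, 59 and 55 counts in Lv_LINC00673 and 112, 162 and 139 counts in Lv_NC (log2 fold change -0.93, adjusted p = 0.028). The call of HLA-DQB1 was lost without library 2 or 3 of either group, with adjusted p from 0.0832 to 0.0953.

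The 7 chromosome 6 genes were also set beside their neighbours. Of the other 98 tested protein-coding genes from HLA-F to TAPBP, 20 were called lower and 4 higher, at a median of -0.19 on the log2 scale. That lower share lies between the 13.8% of all tested genes and the 23.4% of those with a mean of at least 5 CPM. In the offset values 13 were lower and 14 higher, with a median of 0.10, beside 16.7% lower and 17.3% higher over all genes of that fit. Each of the 9 genes tracked the mean of the other 8 over the 6 libraries with a Pearson r of 0.92 to 0.99, a description over libraries of both groups. Among 9027 other genes with a mean of at least 10 CPM, the profiles most like the mean of the 9 were those of TKT, KRT17, PIMREG, TAFA5 and ACAD9 (r = 0.9986 to 0.9995 over 6 libraries), and 1564 genes had r above 0.95. TKT, a pentose phosphate pathway enzyme gene, had a log2 fold change of -0.71, KRT17, a keratin gene, one of -0.66, and the other 3 lay between -0.36 and -0.74.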

How the data were processed

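U2OS total RNA was sequenced after TruSeq library preparation, per the labels' protocols, with hg38 as the build per the submitters' processing notes. The authors deposited raw read counts per gene row and FPKM values. Aligner, counter, strand setting and the FPKM length model are unknown here. Of 50550 rows, 5061 were numbered copies and were added to their gene's main row, leaving 45489; rows with an ID other than a symbol held 3.22 to 4.26% of counts and were kept.

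The main test was edgeR 4.0.16 (robust quasi-likelihood, TMM factors, filterByExpr; R 4.3.3) over 20364 genes, two-sided, with Benjamini-Hochberg adjusted p-values and a threshold of 0.05. Unless named otherwise, adjusted p-values are from it. SEs were obtained as log2 fold change over root F. The offset is a spline (5 degrees of freedom) in GC content and another in length of the longest GENCODE transcript, fitted in each library to genes whose log2 CPM averaged above 2; 82.1% of tested genes had both values. The alternatives were RLE factors, upper-quartile factors, no composition factor (library totals), 2 other filters, DESeq2 1.42.0, limma-voom (limma 3.58.1), limma on log2 FPKM with pseudocounts of 1 and 0.1, a replicate block, the offset, both together, rows as deposited and each library left out. RefSeq start regions were found for 7 of the 9 genes, not HLA-E or NLRC5. Genes and lists were chosen with earlier results of these data known. The named genes are the 9, LINC00673, up to 3 called genes per list with the largest change, others needed to give a list's count, overlapping genes, and the 5 genes of most similar profile. 1 called list gene is not reported here.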

Additional observations from a re-analysis of the deposited data

How the results depend on the processing

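B2M, HLA-E, TAP1 and TAPBP stayed lower past the threshold in all 19 alternatives, TAP2 in 18, HLA-F in 14, HLA-C in 9, HLA-B in 7 and NLRC5 in 6. HLA-B changed sign in the GC and length offset, at 0.09 with and without the replicate block (adjusted p = 0.31 and 0.189), as did PSMB10 (0.01 in both) and CREB1 (-0.23 in both). Of the 9 genes, 5 were called with a replicate block and 5 with rows as deposited, against 8. Over the fits that leave out 1 library, 5 to 9 of the 9 genes, 14 to 37 of the pathway genes (34 with all libraries) and 3341 to 6737 genes in all (6079 with all libraries) were called. Pathway genes called numbered 19 and 18 on the log2(FPKM + 1) and log2(FPKM + 0.1) scales, 9 with a replicate block and 15 with block and offset together. With a replicate block 2446 genes were called in all. Same-numbered libraries deviated together with r of -0.49, -0.47 and 0.06, and no library correlated best with the one of its own number, so the numbers give no pairing. The ratio to B2M changed sign for NLRC5 with FPKM (-0.04), and for HLA-C and TAP2 with rows as deposited (-0.06 and 0.37). For HLA-B the difference in this ratio was 0.24, against 2.96 with rows as deposited, and ran from 0.14 to 0.32 when 1 library was left out; for HLA-C it ran from 0.04 (without Lv_LINC00673 library 1) to 0.24. It ran from -0.07 to 0.01 for HLA-E, -0.15 to 0.10 for TAP2 and -0.10 to 0.00 for TAPBP. The cause of these changes was not tested. Depth limits the low class II genes, PSMB9 and HLA-G; copy rows limit what can be said of single heavy chain genes.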
